A study of Drosophila melanogaster with 9 samples.

Results

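The genes described here encode the 2 largest subunits of RNA polymerase I (RpI1 and RpI135), its initiation factor Tif-IA, 3 core proteins of the box C/D small nucleolar ribonucleoprotein particles, or snoRNPs (Fib, nop5 and Nop56), 2 core proteins of the box H/ACA snoRNPs (Nop60B and NHP2), and the snoRNP chaperone Nopp140. They were chosen by name, with earlier results of these data known, and all 9 were found among the 17199 genes of the authors' deposited table. RpI1 and RpI135 carry the current symbols Polr1A and Polr1B. RNA polymerase I transcribes the ribosomal RNA genes in the nucleolus, and Tif-IA brings the enzyme to their promoters. The C/D snoRNPs methylate riboses of the new ribosomal RNA and the H/ACA snoRNPs turn uridines into pseudouridines, each guided by a small nucleolar RNA, or snoRNA. In the fly ovary the polyploid nurse cells make much of the ribosome stock that is passed to the oocyte.

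The study sequenced ribosomal-RNA-depleted total RNA of Drosophila melanogaster ovaries, with 3 lines and 3 libraries per line, 9 in all. In M6stop flies an edit of Pcif1 shifts the reading frame into a premature stop. In F9ΔNLS flies an in-frame edit removes the nuclear localization signal and leaves a Pcif1 protein of 829 amino acids. Both alleles were made by genome editing in w1118 flies and then backcrossed to the BG02557 line, which served as the control and has a P-element within the first intron of Pcif1. No source used here gives the age of the flies, whether they were homozygous, or whether each library holds 1 pair of ovaries. The comparison asks how the ovarian RNA of each mutant differs from that of BG02557.

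The values are the authors' mean normalized counts, log2 fold changes and adjusted p-values. The authors' deposited table gives an adjusted p for 10662 genes, called the tested genes below, and all 9 genes are among them. "Rose" and "fell" are used of genes whose DESeq2 adjusted p from the authors was under 0.05. Values per library were not analysed here, because the library columns bear codes that match no sample label, so no standard deviation and no order within a group can be given. The labels mention 3 pairs of ovaries per line, and the libraries of a line are called biological replicates in the series' design text. Pcif1 itself stood at -2.51 (log2, DESeq2 adjusted p printed as 0) in M6stop and at 0.02 (DESeq2 adjusted p = 0.83) in F9ΔNLS, per the authors' deposited table; a gene-level count does not check an in-frame deletion. All 8 germline markers were tested, with means from 474 normalized counts for grk to 35691 for osk per the authors' deposited table. Of the 4 testis markers only fzo was tested, at a mean of 51.9, while can had a mean of 1.62, dj one of 0.31 and Mst84Da was listed at 0, per the authors' deposited table.

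The genes lie apart in the genome, 3 on 2L, 3 on 2R, 2 on 3L and 1 on 3R. Positions are from Ensembl release 115 on BDGP6, the build the submitters' processing notes name. RpI1 (FBgn0019938) spans 2R from 14595611 to 14601216 and RpI135 (FBgn0003278) spans 2L from 404285 to 407969. Tif-IA (FBgn0032988) spans 2L from 22249876 to 22258260, and its introns hold 6 annotated transposable element copies. Fib (FBgn0003062) spans 2R from 23072909 to 23074725, nop5 (FBgn0026196) spans 2L from 6916753 to 6918743, and Nop56 (FBgn0038964) spans 3R from 22419095 to 22421068. Nop60B (FBgn0259937) spans 2R from 24174877 to 24186343 and NHP2 (FBgn0029148) spans 3L from 14801328 to 14802168. Nopp140 (FBgn0037137) spans 3L from 21832774 to 21836685, with its middle 1.05 Mb from that of the edited gene Pcif1.

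All 9 genes were well covered. Not scaled by length, their means ran from 2127 normalized counts for NHP2 to 11447 for Nop60B per the authors' deposited table, where the median tested gene had 569.8. NHP2 exceeded 81.0% of the tested genes and Nop60B exceeded 97.6% in mean count per the authors' deposited table. Divided by exonic length, the snoRNP genes stood above the polymerase genes. The C/D gene nop5 had 4254 normalized counts per kb, Fib 3663 and Nop56 3273, computed from means of the authors' deposited table. Of the H/ACA genes Nop60B had 3355 counts per kb, between Fib and Nop56, and NHP2 had 2723, and Nopp140 had 2757, computed from means of the authors' deposited table. Tif-IA had 1933 counts per kb, RpI1 1038 and RpI135 638, computed from means of the authors' deposited table. The place of Nop60B depends on the isoform: its 5 annotated transcripts run from 971 to 3412 bases, and per kb of the shortest it would have 11788 counts, above every other gene of the group. Per kb of their own shortest transcripts Nopp140 would have 3285 counts, just above Nop56, and NHP2 would have 3189. Whether neighbours in this order differ beyond their spread could not be judged without values per library.

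**Figure D1:**
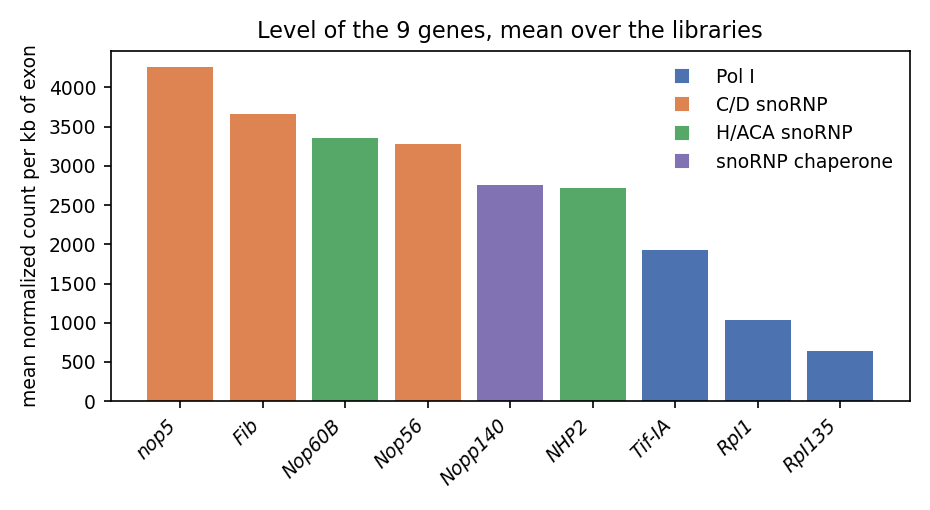
Mean normalized count per kb of annotated exon for each of the 9 genes, from the authors' means over the libraries, coloured by role. The 6 snoRNP genes stand between 2723 and 4254 counts per kb, and the 3 polymerase I genes stand between 638 and 1933.

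Of the 9 genes, 3 snoRNP protein genes also contain snoRNA genes. By their names, those in the H/ACA gene Nop60B are not all guides of its own kind of particle. The name of snoRNA:Me28S-G1083a, for example, points to ribose methylation. Fib holds one (FBgn0065073) in an intron, nop5 holds snoRNA:nop5-x16-a in an intron, and Nop60B holds 7 snoRNA genes, so 9 snoRNA genes lie in 3 of the protein genes. Of the 7 in Nop60B, snoRNA:Psi18S-1820 is intronic and the other 6 lie within the last exon block, so their reads and those of Nop60B cannot be told apart with certainty. In the authors' deposited table snoRNA:Psi18S-1820 had a mean of 5894 normalized counts, the one in Fib a mean of 307, and 4 of the snoRNA genes in Nop60B were listed at 0. Of the 9 snoRNA genes 4 had an adjusted p, and 0 passed in either line by DESeq2. Of all tested genes 5.52% were called in M6stop and 23.4% in F9ΔNLS, so 0 of 4 does not set them apart. Among the 4, snoRNA:nop5-x16-a had a mean of only 5.15 normalized counts and snoRNA:Or-CD9a one of 6.90, per the authors' deposited table. In F9ΔNLS snoRNA:Psi18S-1820 had a log2 fold change of 0.11 (DESeq2 adjusted p = 0.52) and the one in Fib a value of -0.19 (DESeq2 adjusted p = 0.30) per the authors' deposited table. In M6stop snoRNA:Psi18S-1820 had a value of 0.02 (DESeq2 adjusted p = 0.89) and the one in Fib had -0.04 (DESeq2 adjusted p = 0.69), per the authors' deposited table.

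**Figure D2:**
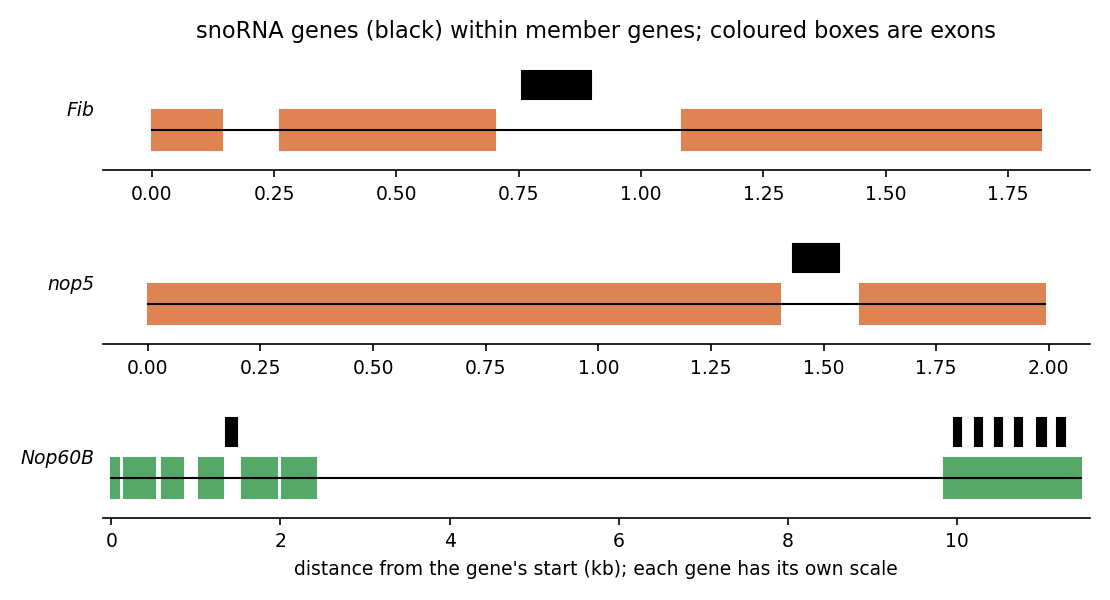
Gene models of Fib, nop5 and Nop60B drawn from their start, in kb, with exons as coloured boxes and snoRNA genes as black boxes above them; each gene has its own scale. Fib and nop5 each hold 1 snoRNA gene in an intron, and Nop60B holds 1 in an intron and 6 over its last exon block.

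In F9ΔNLS ovaries RNA of most of the polymerase I and snoRNP genes was higher than in BG02557 ovaries. Of the 9 genes 8 rose, 0 fell and Tif-IA did not pass. Of all tested genes 23.4% were called in F9ΔNLS. Upward calls took in 11.6% of all tested genes, and 22.2% of the 2158 tested genes whose mean was 2000 normalized counts or more, the range in which all 9 lie. The median log2 fold change of the 9 was 0.41 per the authors' deposited table, beside 0.004 over all tested genes. In bulk tissue, more cells that express these genes and more RNA per cell cannot be told apart.

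In M6stop ovaries 0 of the 9 genes passed by DESeq2, where 5.52% of all tested genes were called in either direction. Their median log2 fold change was 0.02 per the authors' deposited table, with a range from -0.07 for Nop60B to 0.14 for Nopp140. Unadjusted p-values were rebuilt as upper bounds, taking the adjustment to be that of Benjamini and Hochberg, and 1 of the 9, Nopp140, had such a bound under 0.05. Among all 10662 tested genes 1598 had such a bound under 0.05 in M6stop, so this count does not set the 9 apart. The median absolute value over the tested genes was 0.03 in M6stop but 0.11 in F9ΔNLS per the authors' deposited table. Both comparisons use the same BG02557 libraries, and no test set the mutant lines against each other, so their values are given side by side.

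**Figure D3:**
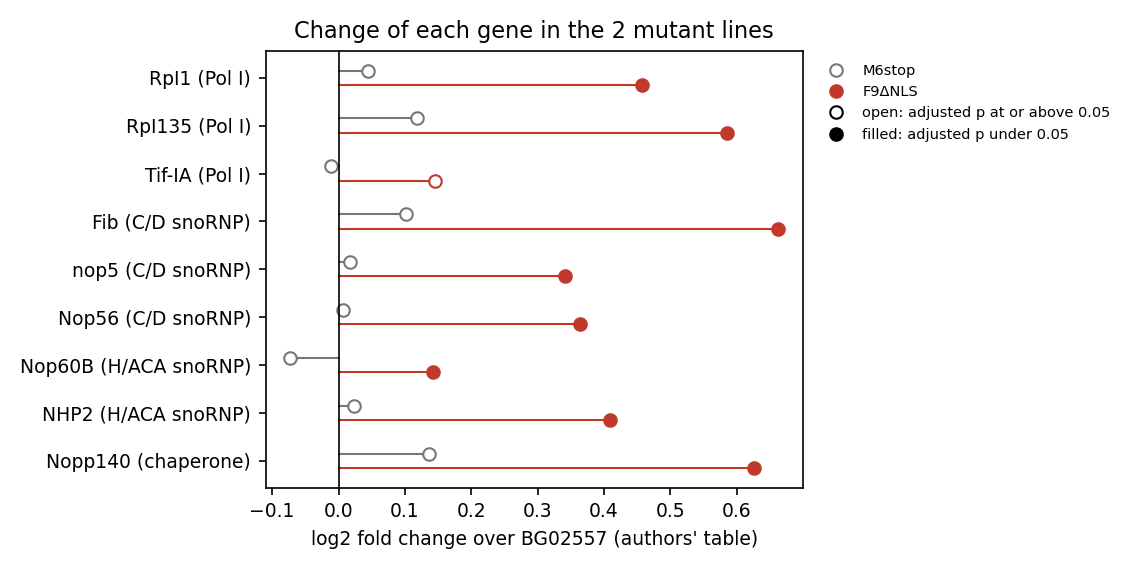
Log2 fold change over BG02557 of each gene in M6stop (grey) and F9ΔNLS (red), from the authors' table; filled points have a DESeq2 adjusted p under 0.05 and no error was available to draw. In F9ΔNLS 8 of 9 points are filled and all lie above 0, and in M6stop all points are open and lie between -0.07 and 0.14.

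Both polymerase I subunit genes rose in F9ΔNLS and the initiation factor gene did not pass. RpI135, which encodes the second-largest subunit and forms the catalytic centre with the largest, stood at 0.58 (log2) in F9ΔNLS (1.50-fold, DESeq2 adjusted p = 8.2e-08) per the authors' deposited table. RpI1, the largest subunit, had one of 0.46 (1.37-fold, DESeq2 adjusted p = 4.2e-05) per the authors' deposited table. Tif-IA, which links growth signals to polymerase I initiation, had a value of 0.14 (DESeq2 adjusted p = 0.29) per the authors' deposited table. Nop60B, which rose, had a similar value (0.14, DESeq2 adjusted p = 0.025), so these genes differ in adjusted p rather than in listed size. In M6stop the values were 0.12 for RpI135 (DESeq2 adjusted p = 0.39), 0.04 for RpI1 (DESeq2 adjusted p = 0.79) and -0.01 for Tif-IA (DESeq2 adjusted p = 0.97) per the authors' deposited table. RpI1 shares 7 exonic bases with CG12869 on the other strand, a gene with a mean of only 2.05 normalized counts per the authors' deposited table.

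The C/D snoRNP genes all rose in F9ΔNLS, and Fib had the highest value of the 9 genes. Fib encodes fibrillarin, the methyltransferase of the particle, and stood at 0.66 (log2) in F9ΔNLS (1.58-fold, DESeq2 adjusted p = 3.2e-10), above 97.5% of tested genes, per the authors' deposited table. The scaffold protein genes Nop56 and nop5, which act as a pair in the particle, followed, with 0.36 for Nop56 (DESeq2 adjusted p = 6.2e-04) and 0.34 for nop5 (DESeq2 adjusted p = 7.2e-05) per the authors' deposited table. In M6stop Fib had a value of 0.10 (DESeq2 adjusted p = 0.46), Nop56 one of 0.01 (DESeq2 adjusted p = 0.97) and nop5 one of 0.02 (DESeq2 adjusted p = 0.93) per the authors' deposited table. The gene x16 overlaps the span of nop5 on the same strand but shares no exonic base with it. Its own log2 fold change in F9ΔNLS was -0.03 (DESeq2 adjusted p = 0.80) per the authors' deposited table.

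Both H/ACA genes rose in F9ΔNLS, by different listed amounts. NHP2, a small core protein of the particle, had a log2 fold change of 0.41 (1.33-fold, DESeq2 adjusted p = 9.8e-04) per the authors' deposited table. Nop60B, the pseudouridine synthase related to human dyskerin, had one of 0.14 (1.10-fold, DESeq2 adjusted p = 0.025) per the authors' deposited table, the lowest value of the 9. It no longer passed at an adjusted p under 0.01. In M6stop NHP2 had a value of 0.02 (DESeq2 adjusted p = 0.91) and Nop60B one of -0.07 (DESeq2 adjusted p = 0.44) per the authors' deposited table.

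Nopp140, a phosphoprotein that accompanies both kinds of snoRNP between nucleolus and Cajal body, had the smallest adjusted p of the group. Its log2 fold change in F9ΔNLS was 0.63 (1.54-fold, DESeq2 adjusted p = 7.7e-14) per the authors' deposited table, and in M6stop it was 0.14 (DESeq2 adjusted p = 0.23). Within 2 Mb of Pcif1, without Pcif1 itself, 13.5% of 362 tested genes rose in F9ΔNLS, beside 11.6% of all tested genes. Nopp140 shares 21 exonic bases with P5CDh1 on the opposite strand, and P5CDh1 stood at 0.18 (log2) in F9ΔNLS (DESeq2 adjusted p = 0.035) per the authors' deposited table. Without stated strand use in the counting, reads in that overlap are uncertain.

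**Figure D4:**
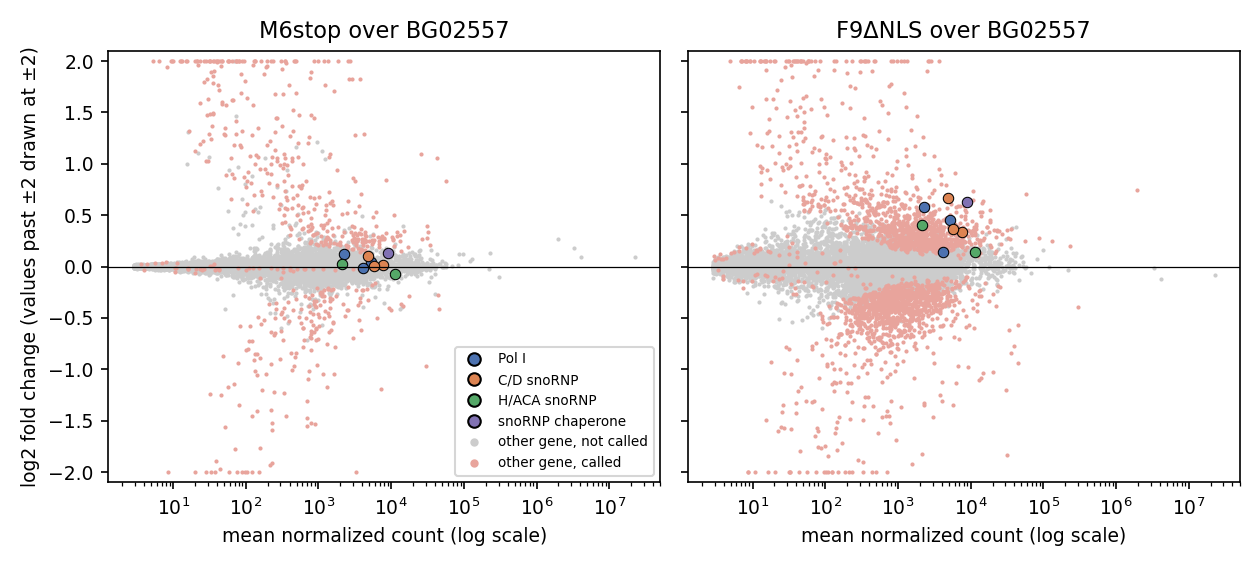
Mean normalized count (log axis) against log2 fold change for all 10662 tested genes in M6stop and F9ΔNLS, from the authors' table, with called genes in pink, values past 2 or -2 drawn at the edge, and the 9 genes as coloured circles. In F9ΔNLS all 9 lie above 0, from 0.14 to 0.66, and in M6stop they lie close to 0.

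The partners of these proteins were read from gene lists chosen by function, with earlier results of these data known. The listed genes of ribosome production outside the 9 numbered 81, all of them tested. In F9ΔNLS 49 of these rose and 2 fell, beside 11.6% and 11.9% of all tested genes, and their median log2 fold change was 0.25 per the authors' deposited table. In M6stop 0 rose and 1 fell by DESeq2, beside 3.48% and 2.04% of all tested genes, with a median of 0.01 per the authors' deposited table.

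Of 9 other polymerase I genes 2 rose and 2 fell in F9ΔNLS, beside 11.6% and 11.9% of all tested genes. Counts this small do not set the list apart from other genes. The subunit genes CG3756, now Polr1C (0.25, DESeq2 adjusted p = 0.028), and l(2)37Cg, now Polr1D (0.33, DESeq2 adjusted p = 0.032), rose per the authors' deposited table. Those that fell were 2 genes of the promoter factor that places polymerase I on ribosomal DNA, TAF1B (-0.28, DESeq2 adjusted p = 0.016) and TAF1C-like (-0.30, DESeq2 adjusted p = 0.012), per the authors' deposited table. Their partner udd had a value of 0.05 (DESeq2 adjusted p = 0.78) and Tbp, which also serves the other polymerases, one of -0.17 (DESeq2 adjusted p = 0.23) per the authors' deposited table. The subunit genes RpI12 (0.15), CG13773, now Polr1F (0.08), and CG18600, now Polr1E (0.06), did not pass per the authors' deposited table. TAF1B was the 1 listed gene of ribosome production that fell in M6stop, where 2.04% of all tested genes fell. It stood at -0.26 on the log2 scale (DESeq2 adjusted p = 0.044) per the authors' deposited table, and TAF1C-like had -0.08 there (DESeq2 adjusted p = 0.58).

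Subunits that polymerase I shares with polymerases II and III had 1 call in F9ΔNLS among 5, Rpb8, which rose (0.35, DESeq2 adjusted p = 0.0062), per the authors' deposited table. That share is near the 23.4% of all tested genes called in F9ΔNLS. Of the 4 genes for the largest subunits of polymerases II and III, 0 rose by DESeq2 and RpII140, the second-largest subunit of polymerase II, fell (-0.28, DESeq2 adjusted p = 0.0015), per the authors' deposited table. RpII215, the largest subunit of polymerase II, had a value of 0.18 (DESeq2 adjusted p = 0.063), RpIII128 one of 0.18 (DESeq2 adjusted p = 0.054) and CG17209, now Polr3A, one of 0.10 (DESeq2 adjusted p = 0.17) per the authors' deposited table. The rebuilt bound of the unadjusted p was under 0.05 for 3 of these 4, RpII140 among them, and for 3691 of the 10662 tested genes. With 11.6% of all tested genes called upward and 11.9% downward, these counts among 4 genes do not set the list apart from other genes, and no test compared it with the polymerase I genes.

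The remaining core proteins of the H/ACA particle rose in F9ΔNLS with NHP2. CG4038, now Gar1, had a log2 fold change of 0.67 (DESeq2 adjusted p = 1.6e-06) and CG7637, now Nop10, one of 0.40 (DESeq2 adjusted p = 0.0020) per the authors' deposited table. Of the other 2 genes of that list, CG10341 rose (0.44, DESeq2 adjusted p = 5.3e-05) and CG10055 had a value of 0.19 (DESeq2 adjusted p = 0.077) per the authors' deposited table. Where 11.6% of all tested genes rose in F9ΔNLS, 2 of 4 further C/D genes did. These were hoip, the counterpart of the human protein that binds the kink-turn of C/D snoRNAs (0.39, DESeq2 adjusted p = 4.3e-05), and the assembly helicase gene rept (0.27, DESeq2 adjusted p = 0.0034), per the authors' deposited table. Its partner helicase gene pont (0.15, DESeq2 adjusted p = 0.22) and the co-chaperone gene spag (-0.23, DESeq2 adjusted p = 0.11) did not pass per the authors' deposited table. In M6stop 0 of these 8 H/ACA and C/D genes passed by DESeq2, where 5.52% of all tested genes were called. The 8 values ran from -0.07 to 0.08 per the authors' deposited table. The rebuilt bound of the unadjusted p was under 0.05 for 0 of the 8, beside 1598 of the 10662 tested genes.

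Most listed factors that act on the pre-ribosome after transcription rose in F9ΔNLS as well. Of all tested genes 11.6% rose and 11.9% fell, and of those with a mean of 2000 normalized counts or more 22.2% rose. Among 25 genes of large subunit assembly 21 rose and 0 fell, with a median of 0.39 per the authors' deposited table. They included CG9246, now Noc2 (0.40, DESeq2 adjusted p = 6.0e-08), pit, a DEAD-box helicase gene (0.47, DESeq2 adjusted p = 5.0e-07), the export adaptor gene Nmd3 (0.44, DESeq2 adjusted p = 2.9e-06) and the GTPase gene Ns3 (0.31, DESeq2 adjusted p = 3.7e-06) per the authors' deposited table. Of 14 genes of the small subunit processome, the particle built around the U3 snoRNA, 8 rose and 0 fell, with a median of 0.21 per the authors' deposited table. The helicase gene kz (0.37, DESeq2 adjusted p = 2.9e-07), CG13097 (0.39, DESeq2 adjusted p = 1.1e-04), l(1)G0020 (0.41, DESeq2 adjusted p = 0.0021) and CG7728 (0.25, DESeq2 adjusted p = 0.0026) were among them per the authors' deposited table. In M6stop 0 of these 39 genes passed by DESeq2, where 5.52% of all tested genes were called. The rebuilt bound of the unadjusted p was under 0.05 for 0 of the 39, beside 1598 of the 10662 tested genes.

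RNA-processing nucleases and other nucleolar proteins completed the pathway. Of all tested genes 11.6% rose and 11.9% fell in F9ΔNLS, and 5.52% were called in M6stop. Of 13 genes of the exosome and related nucleases and helicases 7 rose and 0 fell in F9ΔNLS, among them the helicase gene Mtr4 (0.29, DESeq2 adjusted p = 0.0010), Rrp45 (0.25), Rat1 (0.20) and Dis3 (0.24), per the authors' deposited table. Of 7 other nucleolar protein genes 5 rose and 0 fell. Among these, nclb (0.75, DESeq2 adjusted p = 8.7e-08) exceeded every one of the 9 genes in its listed log2 fold change, and mod, which encodes the nucleolar protein modulo, rose by 0.43 (DESeq2 adjusted p = 7.8e-10), per the authors' deposited table. Both lists had 0 calls in M6stop by DESeq2. The rebuilt bound of the unadjusted p was under 0.05 for 0 of the exosome list and 1 of the other nucleolar list, beside 1598 of the 10662 tested genes.

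Among 11 regulators of ribosomal RNA synthesis and cell growth 4 rose and 0 fell in F9ΔNLS, beside upward calls for 11.6% of all tested genes and 22.2% of those with a mean of 2000 normalized counts or more. Myc, the transcription factor that drives ribosome production in the fly, stood at 0.45 (log2) in F9ΔNLS (DESeq2 adjusted p = 5.3e-08) and at 0.27 in M6stop (DESeq2 adjusted p = 0.0032) per the authors' deposited table. It was the 1 regulator of 11 called in M6stop, where 5.52% of all tested genes were called. Its antagonist Mnt (0.24, DESeq2 adjusted p = 4.6e-04), the kinase gene S6k (0.35, DESeq2 adjusted p = 1.6e-04) and mei-P26, which restrains growth in germline cysts (0.30, DESeq2 adjusted p = 0.0050), rose in F9ΔNLS per the authors' deposited table. Tor, the growth kinase gene, had a value of 0.03 (DESeq2 adjusted p = 0.83) and InR, the insulin receptor gene, one of 0.22 (DESeq2 adjusted p = 0.071) per the authors' deposited table.

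**Figure D5:**
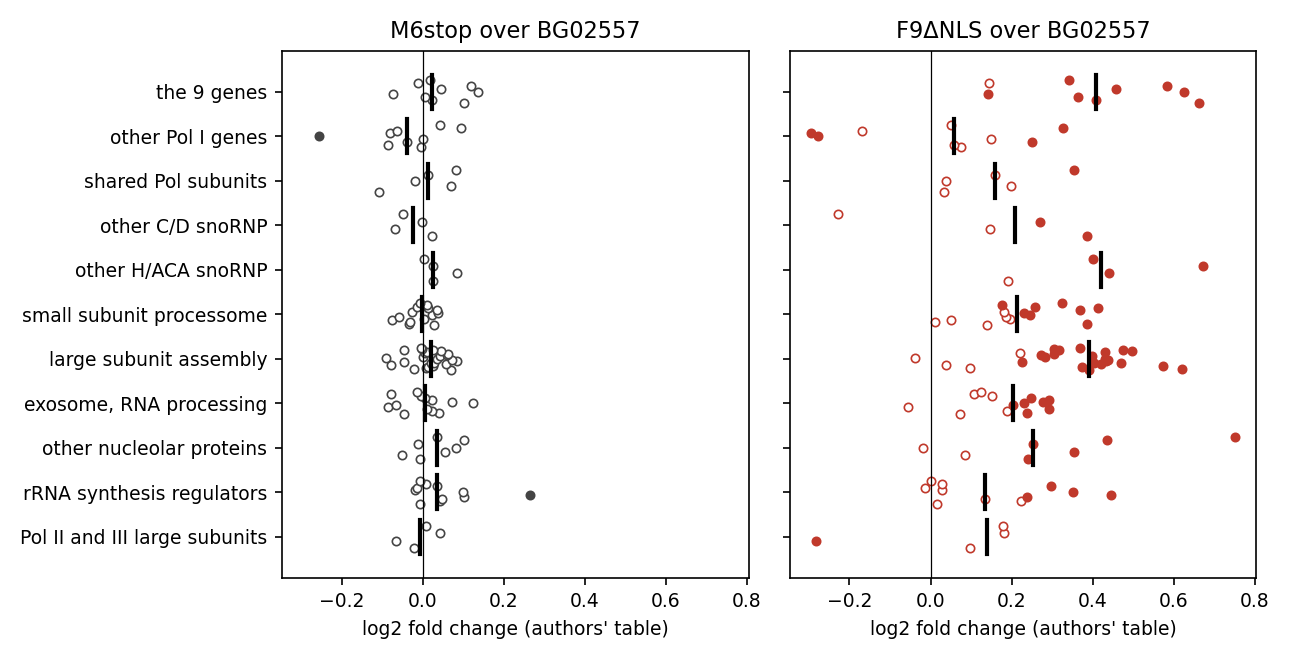
Log2 fold change of each listed gene in M6stop and F9ΔNLS, from the authors' table, with filled points for a DESeq2 adjusted p under 0.05 and a black bar at the list median. In F9ΔNLS the median is 0.41 for the 9 genes, 0.42 for the other H/ACA genes, 0.39 for large subunit assembly and 0.06 for the other polymerase I genes.

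Markers of the cell types in the ovary and around it also moved in F9ΔNLS, where 11.6% of all tested genes rose and 11.9% fell. In M6stop the shares of all tested genes were 3.48% and 2.04%. Of 8 germline markers 4 rose and 1 fell, with orb at 0.40 and nos at -0.60, per the authors' deposited table. Of 8 follicle cell markers 4 rose and 1 fell, with tj at 0.53 and Vm26Aa at -0.85, per the authors' deposited table. All 8 muscle markers rose in F9ΔNLS, with log2 fold changes from 0.69 to 1.07 per the authors' deposited table, and 5 of the 8 rose in M6stop. Of 5 fat body markers 1 rose in F9ΔNLS and 3 in M6stop, and of 4 hemocyte markers Hml rose in both lines (3.09 in F9ΔNLS and 2.14 in M6stop per the authors' deposited table). The part of cell composition in the rise of the nucleolar genes was not tested. No marker list could be summed per group without values per library.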

How the data were processed

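The submitters' processing notes name DESeq2 1.25.10, DESeq, Salmon 1.3.0, R 3.6.3 and BDGP6 but no roles. No source used here gives the annotation release, strand setting, gene filters or adjustment method. The mean normalized count is a signal value that the authors deposited (in DESeq2, the average over libraries of counts scaled by size factor). The log2 fold changes over BG02557 and their adjusted p-values are the authors' own, per the file headers; base 2 was assumed. Whether fold changes were shrunk toward 0 is not stated; in F9ΔNLS 29 and in M6stop 45 called genes had an absolute value under 0.1, so listed sizes may understate changes. The deposited files give no standard error used here.

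The 9 columns of library values match no sample label and were not used, so the planned edgeR model, leave-one-out fits and a direct test between mutants were not run, and library depth is not analysed here. The p-values weigh each difference against the spread between the libraries, which may be partly technical.

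Members and lists were chosen with earlier results of these data known. All 142 list entries were found by name or current symbol. Named were all 9 genes, the polymerase I and snoRNP partners, and otherwise up to 4 called genes per list with the smallest adjusted p. The markers, Tor, InR, Tbp, x16, P5CDh1, CG12869 and the snoRNA genes were named for context after their values were seen, as were the largest subunits of polymerases II and III. Of 17199 identifiers 17063 were in Ensembl release 115, and 17030 had the same chromosome in both. Exonic length is the union of annotated exons. Upper bounds of unadjusted p-values were rebuilt assuming a Benjamini-Hochberg adjustment over 10662 genes, so counts from them are minimums. The code of this step and of the calling was run on simulated data with large shifts, which does not show how small changes are called. Python 3.11.15 and pandas 2.3.3 were used. Alternatives were other thresholds, a minimum mean or fold change, and centring. No sequences were used here.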

Additional observations from a re-analysis of the deposited data

How the results depend on the processing

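The call of 8 of the 9 genes in F9ΔNLS became 7 at an adjusted p under 0.01. It was also 7 when an absolute log2 fold change of at least 0.25 was required. Both times Nop60B (0.14, DESeq2 adjusted p = 0.025) dropped out. At an adjusted p under 0.1, which can only add calls, the count stayed 8. The remaining alternatives left it at 8 but could not have changed it. A floor of 100 on the mean count lies far below the lowest mean of the 9, 2127 for NHP2. Centring on the median of tested genes shifted values by only 0.004, and the smallest called value was 0.14. In M6stop the count of the 9 stayed 0 at an adjusted p under 0.1, the only alternative that could add a call. The other alternatives can only remove calls, so a count of 0 could not change under them. Of the 81 listed pathway genes, the count in F9ΔNLS was 51 and ran from 37 to 55, with the low end at an adjusted p under 0.01, where 0 fell; the 2 that fell were TAF1B and TAF1C-like. In M6stop the count of 1, TAF1B, became 0 at an adjusted p under 0.01. The shares of all tested genes called under these alternatives were not computed, so the changed counts have no background beside them. Centring moved no value by more than 0.004. Every absolute value of the 9 genes was larger than that in both lines, so centring could turn no direction among them.

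No paired analysis was possible because the library columns carry no replicate number that matches the labels. For the same reason edgeR's TMM against DESeq2 size factors, the filter on low counts and leaving out each replicate were not run, so whether 1 library decides a call was not tested. The planned search of promoter motifs was not run. Without library values the depth behind each gene is limited to its mean, which was over 2000 normalized counts for all 9 genes and lowest at 216 among the listed polymerase I partners.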
